A study of Mus musculus with 48 samples.

Results

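Signalling-only regions are stretches of mouse chromatin with a peak of accessibility in every state in which NODAL/Activin signalling was on, and with none where it was blocked. They were found by merging the peaks of 4 lists, 1 per signalling state, wherever peaks overlapped by at least 1 bp, and keeping the regions with a peak after 1 h of Activin, after 8 h of Activin and in untreated cells but with no peak with SB-431542. This rule kept 4557 of 287329 regions, or 1.59% of all regions. For scale, regions that lacked a peak after 1 h of Activin alone made up 2.33% of all regions, those that lacked one after 8 h alone 4.09%, and those that lacked one in untreated cells alone 3.12%. The SB-431542 peak was thus the one least often missing by itself, though by little once every list was cut to the length of the shortest (7033 members, against 7086 to 8032 regions in the other sets). The presence of peaks chose the members, and their peak scores are given as a description.

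The cells were P19 cells, a mouse embryonic teratoma line, and ATAC-seq was used, in which a transposase cuts and tags DNA that is not wrapped up in closed chromatin. SB-431542 is an inhibitor of the receptor kinases for NODAL and Activin and was given at 10 µM overnight, followed by a wash and 1 h more of inhibitor. For the Activin states, the inhibitor was washed out after the same overnight block and 20 ng/ml Activin was given for 1 h or 8 h. Untreated cells had neither agent and signalled through the NODAL and GDF3 that they make. The labels list 12 libraries per state from 2 biological replicates, which the authors merged into 1 peak list per state, so no value below has a replicate error and no difference between states was tested. All the cells are of 1 line, and the labels name no clone.

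NODAL and Activin bind receptors that phosphorylate SMAD2 and SMAD3, which then enter the nucleus with SMAD4 and bind DNA. SMAD proteins bind short sequences weakly and are brought to particular sites by partner factors, of which FOXH1, a forkhead protein, is the best known for this pathway in the early embryo. There the pathway sets up mesoderm and endoderm, and its target genes include its own ligands and inhibitors.

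Of the 20 strongest signalling-only regions, 4 held the same arrangement of letters, shown here because several results below turn on it. Strength was ranked by the weakest of a region's 3 peaks in −log10 q, the score that the peak caller gave for the pileup of reads against local background. The sequences run 5′ to 3′ on the plus strand of GRCm38 (mm10), and capitals mark the SMAD motif CCAGACA and the FOXH1 motif AATNCACA, here read on the other strand as TGTGNATT. They are named by the nearest gene and lie at chr2:105876026-105876104 in an intron of *Elp4*, chr1:100843778-100843856 between genes near *Cntnap5b*, chr4:36537583-36537661 in an intron of *Lingo2* and chr3:9747694-9747772 in an intron of *Pag1*.
Elp4: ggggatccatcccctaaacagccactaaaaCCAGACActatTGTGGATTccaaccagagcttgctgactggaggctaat
Cntnap5b: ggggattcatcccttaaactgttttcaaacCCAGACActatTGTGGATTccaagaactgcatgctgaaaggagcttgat
Lingo2: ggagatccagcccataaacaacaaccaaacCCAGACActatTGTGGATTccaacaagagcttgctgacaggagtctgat
Pag1: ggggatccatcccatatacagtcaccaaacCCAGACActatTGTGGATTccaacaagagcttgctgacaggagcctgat

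The third strongest member, between genes near *Wdr75*, is shown in the same frame at chr1:45670968-45671046 because it kept the FOXH1 letters and the surrounding sequence but not the SMAD letters.
Wdr75: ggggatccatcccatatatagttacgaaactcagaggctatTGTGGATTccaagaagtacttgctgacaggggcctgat

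The arrangement of the first 4 is CCAGACANNNNTGTGNATT, a stretch of 19 letters in which a SMAD motif is followed by a FOXH1 motif on the opposite strand after 4 bp. It is called the element below, and it was chosen after the sequences of the strongest members had been seen. The letters were then searched on both strands of the whole genome.

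The element occurred 168 times in the genome and 91 of these copies (54.2%) lay inside a region, each in a different one. Of the 91 regions, 24 were signalling-only, or 26.4% (95% Wilson interval 18.4 to 36.3), against 1.59% of all regions. Without the 4 regions in which the letters were first seen, 20 of 87 were members (23.0%). Another 45 of the 91 regions had a peak in all 4 lists. Of the remaining 22, 9 had a peak after 8 h and in untreated cells only, 9 after 8 h only, and 1 each after 1 h only, after 1 h and in untreated cells, after 1 h and 8 h, and in all states but 1 h. No region with the element lacked a peak after 8 h alone, and none lacked one in untreated cells alone. Such regions made up 4.09% and 3.12% of all regions. A count of 0 allows a share of about 3.3%, taken as 3 of 91, which is a rough bound and not a Wilson bound. In all, 45 of 91 regions with the element had no SB-431542 peak (49.5%), against 19.9% of all regions. The Wilson intervals here and below cover counting error only and treat regions as independent, whereas many copies of the element are related in sequence.

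The share of members also differed with the strand of the FOXH1 letters. Where a region held the same letters with the same 4 bp between them but FOXH1 on the same strand as SMAD (CCAGACANNNNAATNCACA), 3 of 85 regions were members (3.53%, 1.21 to 9.87) and 75 had a peak in all 4 lists. Of all regions, 56.6% had a peak in all 4 lists. Repeat content and kinship of these 85 regions were not compared, so strand and sequence family cannot be told apart here. Every other arrangement of the motifs within 30 bp of each other was found in 682 regions, of which 22 (3.23%) were members. Taken singly, these arrangements held 29 regions or fewer, and their shares of members ran from 0% to 50% (1 of 2 regions). Where both motifs lay in the central 300 bp but not within 30 bp of each other, the share was 2.29% of 916 regions. It was 1.89% with the SMAD motif alone, 2.03% with the FOXH1 motif alone and 1.52% with neither.

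**Figure D1:**
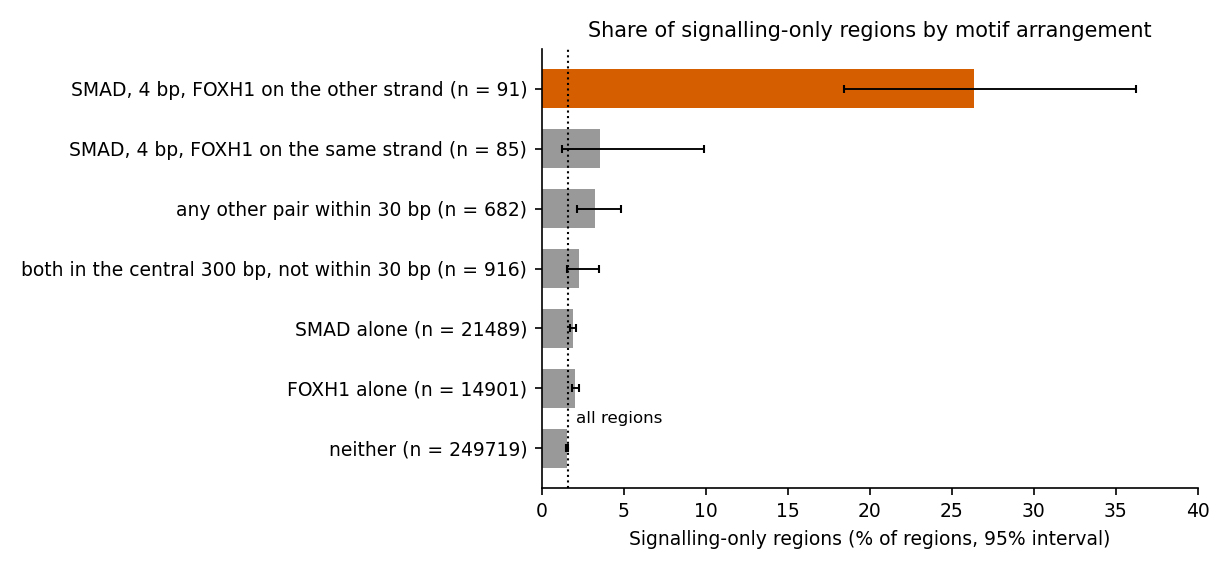
Share of regions that were signalling-only (x axis, percent, bars from 0 with 95% Wilson intervals) by the SMAD and FOXH1 letters they held (y axis, with the number of regions), and over all regions as a dotted line. The element stands at 26.4%, while the other arrangements lie between 1.52% and 3.53%.

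The 24 members with the element lay on 13 chromosomes, 16 between genes and 8 in introns, with none at a promoter. Their median distance to the nearest protein-coding transcription start site was 239 kb, and 5 lay within 50 kb of one. The peak scores of these members differed by state. Fold enrichment, which is the mean pileup of reads in a peak over its local background, had a median of 1.87 after 1 h of Activin (1.58 to 3.40), 2.67 after 8 h (1.71 to 6.71) and 1.99 in untreated cells (1.58 to 4.72). To compare lists, fold enrichment was divided by its median over regions found in all 4 lists. On that scale 20 of 24 were higher after 8 h than after 1 h, and 19 of 24 were higher after 8 h than in untreated cells. Most were weak peaks, since only 5 of 24 reached a −log10 q of 5 in each signalling list.

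**Figure D2:**
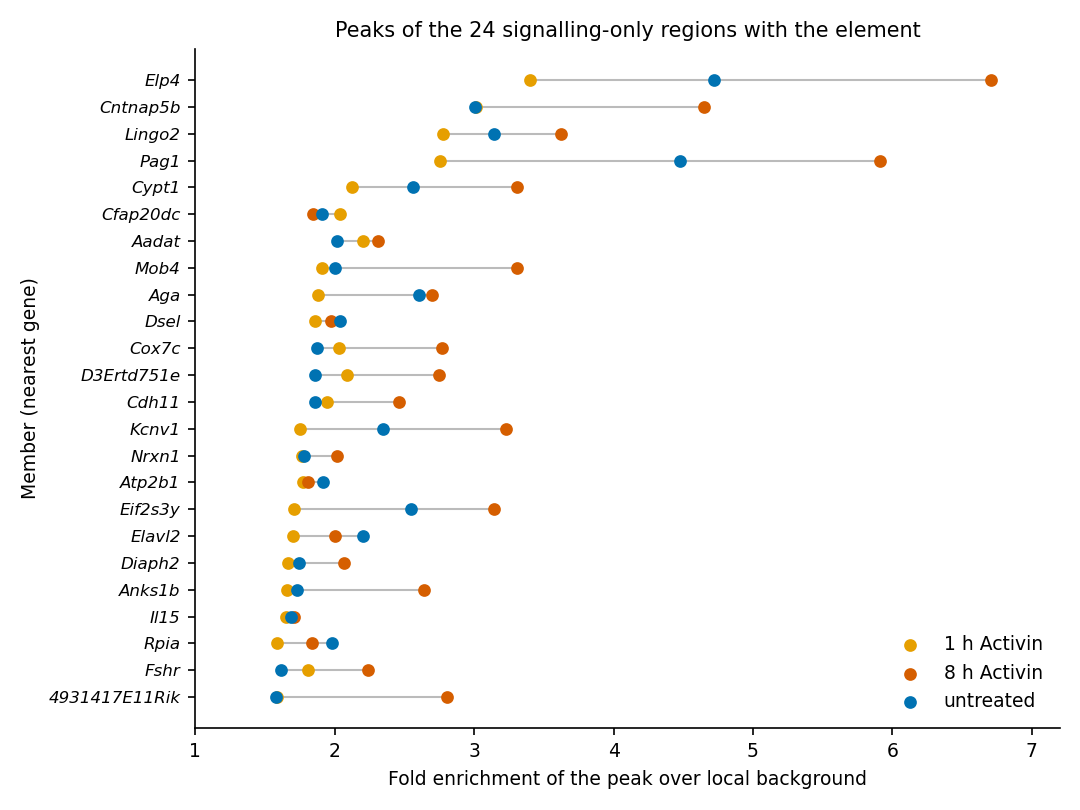
Fold enrichment over local background (x axis, ratio) of the 24 signalling-only regions with the element, 1 per line by nearest gene and ordered by their weakest −log10 q, with a point for each signalling state. The 8 h points reach 6.71 and 20 of 24 lie above the 1 h points after scaling.

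Most copies lay in repeated DNA. In 21 of 24 members (87.5%) every letter of the element was marked as repeat in the genome sequence, as in 134 of all 168 copies (79.8%). The 4 bp between the motifs were CTAT in 19 of the 24 members and in 108 of the 168 copies. With every CTAT copy left out, 5 of 22 regions were members (22.7%). The regions at *Elp4* and *Lingo2* aligned with 80.4% identity over 598 bp, those at *Elp4* and *Pag1* with 78.8% over 593 bp and those at *Cntnap5b* and *Pag1* with 82.4% over 376 bp. Identity was lower for *Cntnap5b* and *Lingo2*, at 75.9% over 344 bp, and for *Pag1* and *Lingo2*, at 75.8% over 615 bp. Those at *Cntnap5b* and *Elp4* gave no alignment that met the limits used (an e-value up to 1e-20 over at least 200 bp). The name of the repeat family is not given in the sources used here.

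Relatives of these 4 regions were counted with and without the element. By the same limits, 6827 other regions aligned to 1 of these 4, and 167 of them (2.45%) were members. Of those with the element, 16 of 64 were members (25%, 16 to 36.8). Of the 6763 without it, 2.23% were members. Among relatives without the element, the share was 2.18% of 1237 with the SMAD motif and 2.67% of 599 with the FOXH1 motif. Relatives with and without the element were not matched for how closely they align, and the part of kinship in these shares was not tested. The authors removed ambiguously mapped read pairs, and how many reads were lost in such repeats was not tested.

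Regions with the element that had a peak in all 4 lists were not chosen by the rule and had an SB-431542 value to compare with. Scaled fold enrichment in these 45 regions was above its SB-431542 value in 41 (91.1%) after 1 h, in 42 (93.3%) after 8 h and in 41 (91.1%) in untreated cells, while this held for 58.6%, 52.0% and 49.9% of the 162505 regions found in all 4 lists. The median log2 of the scaled value over SB-431542 was 0.28 after 1 h, 0.63 after 8 h and 0.34 in untreated cells, against 0.03, 0.01 and 0.00 over all such regions. A log2 above 1 was found in 5 of the 45 after 1 h, 12 after 8 h and 10 in untreated cells, against 19, 515 and 254 of the 162505. The largest value was at the region nearest *Rnf20*, a ubiquitin ligase gene, where fold enrichment was 1.83 in SB-431542 cells, 3.77 after 1 h, 7.09 after 8 h and 6.57 in untreated cells. The region nearest *Adgrg6*, an adhesion receptor gene, had 2.60 with SB-431542, 6.12 after 1 h, 8.42 after 8 h and 7.10 in untreated cells. In both, the untreated value lay between those at 1 h and 8 h. The 45 regions were not matched to the 162505 for SB-431542 fold enrichment, which is the divisor of these ratios. Many of the 45 lay below the lower quartile of that value in the larger set, 2.06. Of the 45, 32 also aligned to 1 of the 4 strongest members with the element. The part of weak SB-431542 peaks and of kinship in these values was not tested.

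**Figure D3:**
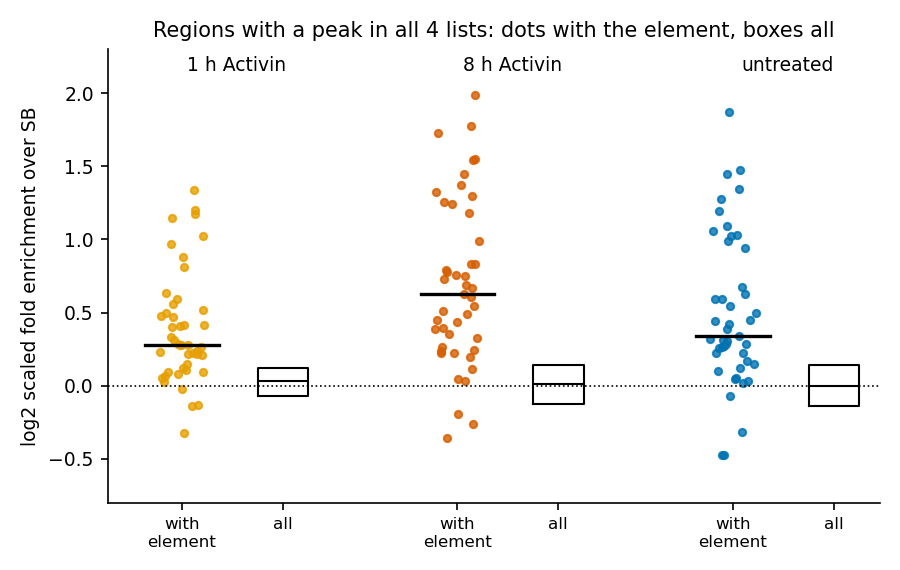
Log2 of scaled fold enrichment over SB-431542 (y axis) in regions with a peak in all 4 lists, by state. Dots are the 45 regions with the element and bars their medians, 0.28, 0.63 and 0.34, and boxes are the quartiles and medians of all 162505 such regions, with medians of 0.03, 0.01 and 0.00. Dots and boxes were not matched for SB-431542 values.

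Signalling-only regions had weaker peaks and spanned fewer bp than regions found in all 4 lists, as did every set that lacked 1 peak. In members the median fold enrichment was 1.74 after 1 h, 1.87 after 8 h and 1.86 in untreated cells, against 2.49, 2.62 and 2.62 in regions with a peak in all 4 lists. The median width of a member, which is the span of its merged peaks, was 598 bp (quartiles 397 and 955 bp), against 975 bp. Regions of all 4 lists join the peaks of 4 lists and members those of 3, and widths of single peaks were not compared. The sets that lacked a peak of another single list had median widths of 466 bp (1 h missing), 585 bp (8 h missing) and 527 bp (untreated missing), and median fold enrichments between 1.81 and 2.03 in the lists they had. Many lay close to the limit of detection. The weakest peak had a −log10 q under 2 in 2452 members (53.8%), and in 1446 (31.7%) all 3 peaks were under 3. Every peak reached 5 in 274 members (6.01%) and 10 in 28 (0.614%).

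Just inside the rule, the 5 members with the weakest peak had a 1 h fold enrichment of 1.52 and a −log10 q of 1.03, with an 8 h fold enrichment between 1.68 and 2.55. Just outside it, the 5 regions of all 4 lists with the weakest SB-431542 peak had a fold enrichment of 1.38 to 1.51 and a −log10 q of 1.06 to 1.15 in that list. A member is therefore a region without a called SB-431542 peak, which is not the same as a region without accessibility. The signalling lists held 209212 to 233336 peaks, against 234758 in the SB-431542 list, and the lowest local background estimated in the other lists was 79.0% to 92.6% of that in the SB-431542 list. P19 identity was read from promoter peaks of *Pou5f1*, *Sox2*, *Nanog*, *Lin28a*, *Sall4*, *Dppa4* and *Utf1*, and all 7 had one in every list but for *Dppa4* after 8 h. Of 6 blood, muscle and liver genes, *Ptprc* and *Myod1* had a promoter peak in every list, and *Cd3e*, *Ckm*, *Alb* and *Ttr* had none.

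Signalling-only regions were distal. By the position of the centre, 3020 (66.3%) lay between genes, 1390 (30.5%) in introns, 82 (1.80%) in exons, 32 (0.702%) at termination sites and 33 (0.724%, 0.516 to 1.02) at promoters, which were taken to begin 1000 bp before a start site and to end 100 bp after it. The promoter share was 5.71% for regions with a peak in all 4 lists and between 0.586% and 0.999% for regions that lacked a peak in another single list. Few promoters were thus a property of every set of regions that lacked 1 peak. The median distance to the nearest protein-coding transcription start site was 135 kb, against 66.9 kb for regions of all 4 lists. It was 55 kb, 148 kb and 108 kb where the missing peak was that of 1 h, of 8 h and of untreated cells.

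The nearest SB-431542 peak lay at a median of 2961 bp from a member, with 4 members within 200 bp and 8.01% within 1 kb. For the sets that lacked another single list, 5.57% to 6.41% lay within 1 kb of a peak of the missing list. The median GC content of the central 300 bp was 45.3%, against 47.0% in all regions, and 25.2% of member windows were mostly repeat, against 22.5%. Neither value was particular to members, since GC was also 45.3% where the 8 h peak was missing, and mostly repeat windows made up 27.6% of that set and 25.9% of the set without an untreated peak. Members made up between 1.1% (chromosome 19) and 1.9% (chromosome 3) of the regions of each chromosome.

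The letters of single transcription factor motifs were counted in the central 300 bp of every region, on both strands, by exact match. The SMAD motif CCAGACA was in 457 members (10.0%, 9.19 to 10.9), against 7.90% of all regions and 7.49% of all regions weighted to the GC content of the members. The FOXH1 motif AATNCACA was in 353 members (7.75%, 7.01 to 8.56), against 5.61% and, weighted for GC, 6.17%. With the letters read backwards, which keeps their composition, the shares were 4.48% of members against 4.46% of all regions for SMAD and 3.18% against 3.24% for FOXH1. In the sets that lacked a peak of another single list, the SMAD motif was in 6.76% (1 h missing), 7.70% (8 h missing) and 9.09% (untreated missing), and the FOXH1 motif in 5.71%, 5.48% and 5.31% in the same order.

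The palindrome GTCTAGAC, another sequence that SMAD proteins bind, had the largest ratio of the 22 motifs searched, in 32 members (0.702%, 0.498 to 0.990) against 0.282% of all regions, and in 0.209% to 0.265% of the other sets. Read backwards it was in 0.834% of members and 0.771% of all regions. The TCF/LEF motif ATCAAAG, bound by the factors at the end of the WNT pathway, was in 7.18% of members against 5.30% of all regions and 6.32% of the set that lacked an untreated peak alone. Its share was 6.57% (4.20 to 10.1) in members with every peak at 5 or more, and it was in 0 of the 28 with every peak at 10 or more (upper bound 12.1%). The general forkhead motif GTAAACA was in 4.26% against 4.34%.

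Other motifs were scarcer in members than in all regions. The AP-1 motif TGANTCA, bound by FOS and JUN proteins, was in 6.98% of members against 12.0% of all regions. It was in 6.80% where the missing peak was that of 1 h, 14.2% where it was that of 8 h and 15.8% where it was that of untreated cells. The CTCF motif AGGGGGCGC was in 0.0878% of members against 0.451%, and the GC-rich SMAD motif GGCGCC, whose letters can overlap it, in 0.812% against 2.66%. Both were also scarce in the sets that lacked an 8 h or an untreated peak alone, where CTCF was in 0.187% and 0.0782% and GGCGCC in 1.01% and 1.08%. The octamer ATGCAAAT, bound by OCT4, was in 3.14% against 2.73%. A match is a run of letters and not an observed binding event.

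Both motifs, SMAD and FOXH1, lay in the central 300 bp of 51 members (1.12%, 0.852 to 1.47), against 0.425% of all regions and 0.343% to 0.433% of the 4 other sets. Of these members 19 hold the element, and without regions that hold it the share was 32 of 4533 (0.706%, 0.501 to 0.995), against 0.409% of all regions. The difference was also there outside repeats, for either motif. In windows under 50% repeat, the SMAD motif was in 8.56% of members against 7.07% of all regions, and the FOXH1 motif in 7.68% against 5.66%. Without the regions that hold the element, the shares were 9.64% against 7.89% for SMAD and 7.35% against 5.59% for FOXH1.

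The SMAD and FOXH1 shares were highest in the strongest members. Shares by strength were counted in members alone, so whether they also rise with strength in other regions was not tested. Among the 246 members whose weakest −log10 q lay between 5 and 10, the SMAD motif was in 13.0% (9.37 to 17.8) and the FOXH1 motif in 11.4% (7.99 to 16). In the 28 members at 10 or more, each motif was in 10 (35.7%, 20.7 to 54.2) and both were in 6. Of these 28, 4 hold the element, which was first seen in them. In the 24 others each motif was in 6 (25%, 12.0 to 44.9) and both were in 2. These 24 include the *Wdr75* region, which kept the FOXH1 letters and the sequence around the element. Below 5 the shares changed little, between 8.73% and 10.4% for SMAD and between 6.08% and 8.22% for FOXH1. The AP-1 motif lay between 4.07% and 10.7% in every bin.

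**Figure D4:**
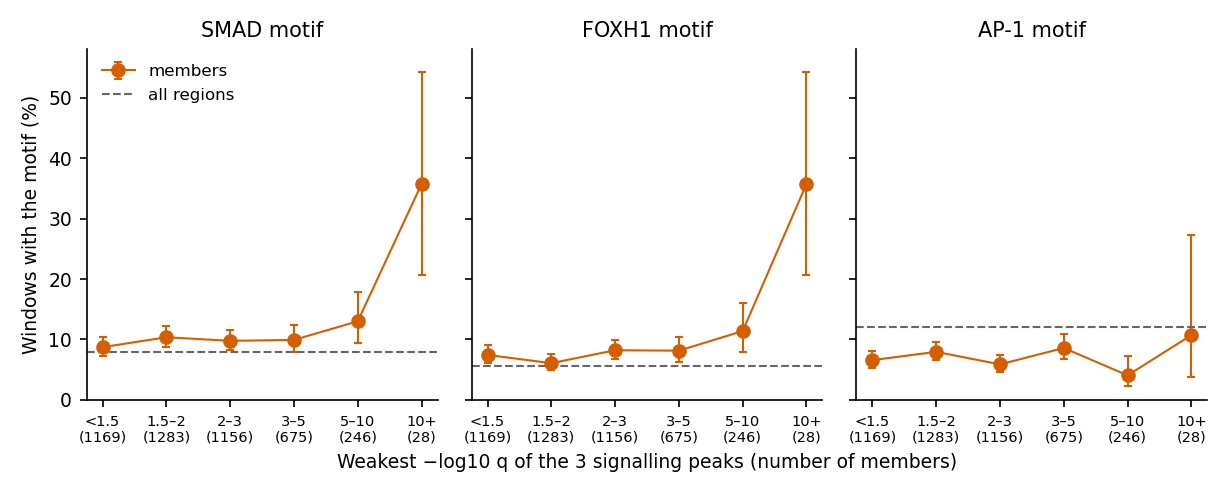
Share of signalling-only regions with each motif in the central 300 bp (y axis, percent, 95% Wilson intervals) by the weakest −log10 q of their 3 peaks (x axis, with the number of members), and the share of all regions as a dashed line. SMAD and FOXH1 reach 35.7% in the 28 strongest members, while AP-1 stays below its share of 12.0% in all regions. The share of all regions was not divided by strength.

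The position of the motifs also differed between the pair. SMAD motifs were densest around the centre of members, at 36.2 per 1000 regions in the 100 bp centred at -50 bp and 40.2 in those centred at 150 bp, against 26.6 and 28.7 at the same places in regions of all 4 lists. A rise towards the centre was seen in both sets. From -950 to -150 bp the count went from 16.9 to 32.5 in members and from 18.3 to 29.1 in regions of all 4 lists. Sets that lacked another single peak were not compared. FOXH1 motifs were spread evenly over members, between 24.6 and 33.6 per 1000 regions in each 100 bp. In regions of all 4 lists they thinned towards the centre, to 19.

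**Figure D5:**
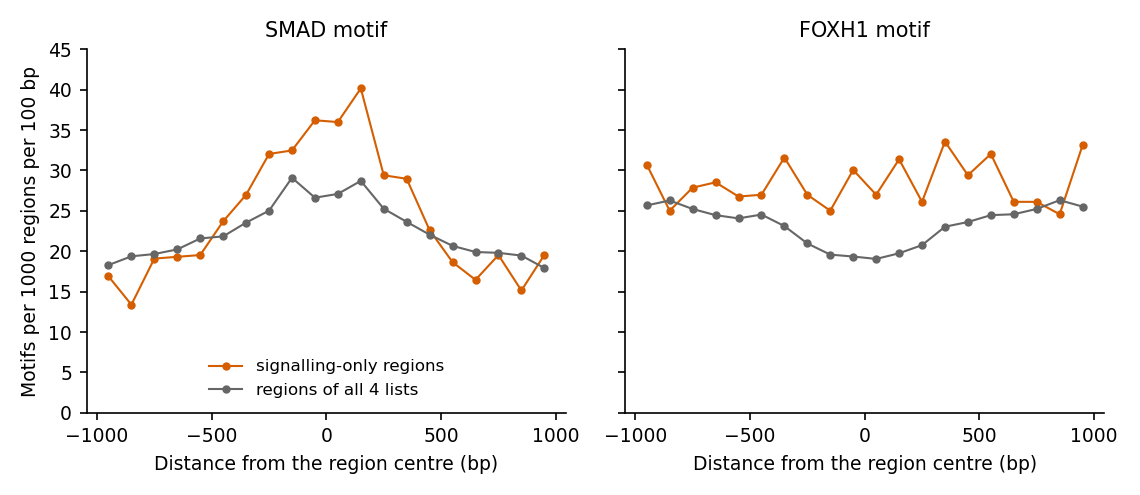
Number of SMAD and FOXH1 motifs per 1000 regions in each 100 bp (y axis) by distance from the region centre (x axis, bp), in signalling-only regions and in regions of all 4 lists. The SMAD count reaches 40.2 in members near the centre, and the FOXH1 count in regions of all 4 lists dips to 19 where that of members does not.

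The 20 strongest members had a weakest −log10 q of 11.4 to 38.0, with 11 in introns, 9 between genes and none at a promoter. The SMAD motif was in the central 300 bp of 9, the FOXH1 motif in 9, both in 5 and at least 1 of the pair in 13. Over all regions these shares were 7.90%, 5.61%, 0.425% and 13.1%. The 5 with both include the 4 related regions from which the element was drawn. The strongest was an intron of *Mcc*, a gene first found mutated in colorectal cancer, with a fold enrichment of 4.38 after 1 h, 6.86 after 8 h and 8.52 in untreated cells. Its window was repeat letters throughout, with a GC content of 29%, and held none of the 22 motifs. The *Mcc* region aligned to 26 other regions at 80.9% to 98.3% identity, of which 0 were members and 19 had a peak in all 4 lists.

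The intron of *Elp4*, which encodes a subunit of the Elongator complex, had 3.40 after 1 h, 6.71 after 8 h and 4.72 in untreated cells. The region 124 kb upstream of *Wdr75*, a ribosome biogenesis gene, had 4.20, 4.98 and 3.41 in the same order of states. The intron of *Pag1*, an adaptor of Src-family kinases, had 2.76, 5.91 and 4.48. The highest state was thus 8 h in each of these 3. The region between genes near *Cntnap5b*, a neuronal adhesion gene, had 3.02, 4.65 and 3.01, and the intron of *Lingo2*, which encodes a leucine-rich repeat membrane protein, had 2.78, 3.62 and 3.14.

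Outside the repeat family, the FOXH1 motif was also in members that aligned to no other region. Shown are 3 of these and 1 that held both motifs in another arrangement, at chr13:99090475-99090554 between genes near *Zfp366*, chr15:38169834-38169913 between genes near *Odf1*, chr9:95640042-95640121 in an intron of *Pcolce2* and chr8:99548818-99548897 in an intron of A330008L17Rik, for which *Cdh8* has the nearest start site. Capitals mark AATNCACA or TGTGNATT, and CCAGACA at *Cdh8*.
Zfp366: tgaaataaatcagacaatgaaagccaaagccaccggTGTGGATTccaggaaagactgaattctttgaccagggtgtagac
Odf1: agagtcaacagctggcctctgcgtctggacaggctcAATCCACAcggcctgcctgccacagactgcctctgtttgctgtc
Pcolce2: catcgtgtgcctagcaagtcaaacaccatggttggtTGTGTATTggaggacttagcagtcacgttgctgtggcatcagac
Cdh8: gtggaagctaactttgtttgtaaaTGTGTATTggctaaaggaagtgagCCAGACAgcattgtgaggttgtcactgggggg

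The region 94.3 kb upstream of *Zfp366*, a zinc finger gene, had a fold enrichment of 3.06 after 1 h, 4.56 after 8 h and 3.40 in untreated cells. The region 49.3 kb upstream of *Odf1*, a sperm tail gene, had 2.95, 4.30 and 4.83, and the one for which *Cdh8*, a cadherin gene, was nearest had 2.46, 3.36 and 2.74. The 1 h value was the lowest of the 3 states in each. *Dst*, which encodes the cytoskeletal linker dystonin, had an intronic member, with a window of repeat letters throughout, of 2.84, 6.32 and 5.97. The members nearest *Tsga8* (in an intron of *Dmd*, the dystrophin gene), *Ccdc178*, *Jrkl*, *Gm5169* and *Tnks*, a tankyrase gene, had 2.59 to 2.94 after 1 h, 3.33 to 4.12 after 8 h and 2.86 to 3.93 in untreated cells.

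Of the 20 strongest, 5 stood apart by their high local background and low enrichment. These were in introns of *Grk5*, *Vegfc*, *Pcolce2* and *Gse1* and 1.82 kb upstream of *Bmp2*, a ligand of the BMP pathway. Their estimated background was 59.1 to 208 reads per bp, against 22.2 to 41.0 in the other 15, and their fold enrichment was 1.55 to 2.49 over the 3 states. An SB-431542 peak lay 1209 to 1721 bp from each. The *Bmp2* region had 1.68 after 1 h, 1.65 after 8 h and 1.73 in untreated cells, and the part of the nearby SB-431542 peak in these values was not tested. The SMAD letters CCAGACA were read on the other strand as TGTCTGG in 2 of these, at chr19:60892280-60892359 and chr8:120513771-120513850, shown as cases of the motif in sequence that aligned to no other region.
Grk5: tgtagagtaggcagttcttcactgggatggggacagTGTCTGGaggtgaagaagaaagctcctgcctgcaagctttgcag
Gse1: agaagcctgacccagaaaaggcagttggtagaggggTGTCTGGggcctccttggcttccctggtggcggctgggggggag

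Within members, 8 h of Activin more often gave the highest scaled fold enrichment than either other signalling state. It was highest after 8 h in 1748 members (38.4%), in untreated cells in 1520 (33.4%) and after 1 h in 1289 (28.3%), against 29.7%, 28.1% and 42.1% of the regions of all 4 lists. The scaled value was higher after 8 h than after 1 h in 58.6% of members (57.15 to 60.01) and in 45.6% of regions of all 4 lists. In the 274 members with every peak at 5 or more, that share was 74.8% (69.4 to 79.6). Scaled values after 8 h were above those of untreated cells in 53.4% of members, near the 53.7% of regions of all 4 lists. The differences were small for most members, with a median log2 of 0.04 for 8 h over 1 h and quartiles of -0.07 and 0.17.

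The members with the widest spread between the times of Activin were taken from these 274. The largest scaled ratio of 8 h to 1 h was 3.05 at the region nearest *Arl15*, a small GTPase gene, with a fold enrichment of 2.36 after 1 h, 7.57 after 8 h and 3.61 in untreated cells. The regions nearest *Nuak1*, a kinase gene, *Mbd5*, *Tdrd7* and *Kit*, a receptor tyrosine kinase gene, had ratios of 2.90, 2.46, 2.28 and 2.17. At *Kit*, 189 kb upstream of the gene, the fold enrichment was 2.07 after 1 h, 4.73 after 8 h and 2.31 in untreated cells, so that the 8 h value stood alone.

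The smallest ratios were 0.621 near *Arhgef28*, 0.672 near both *Haus6* and *Egfl6*, 0.724 near *Rarb*, a retinoic acid receptor gene, and 0.758 near *Nid2*, a basement membrane gene. Near *Arhgef28* the fold enrichment was 3.43 after 1 h, 2.24 after 8 h and 2.5 in untreated cells. In the *Rarb* intron it was 3.34 after 1 h, 2.55 after 8 h and 3.85 in untreated cells. The 8 h value was the lowest of the 3 at both.

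Signalling-only regions near genes of the pathway and of the cell types around it were counted in 12 lists of genes. Of 2567 regions within 50 kb of a start site of a gene in any of these lists, 24 were members (0.935%, 0.629 to 1.39), against 1.59% of all regions. Counted by protein-coding start sites alone, 30.2% of all members lay within 50 kb of one, against 40.8% of all regions. The lists went both ways, with wide intervals. The share was 1 of 214 (0.467%, 0.0825 to 2.60) for the list of NODAL and Activin ligands and receptors. The only gene of that list with a member was *Tgfb2*, which encodes a TGF-β ligand and not NODAL or Activin. For feedback inhibitors the share was 3 of 204 (1.47%, 0.501 to 4.23). In the others it ran from 0 of 143 regions for SMADs and their DNA-binding partners, 0 of 187 for neural genes and 0 of 159 for blood, muscle and liver genes (upper bounds 2.62%, 2.01% and 2.36%) to 6 of 292 (2.05%, 0.945 to 4.41) for mesendoderm genes and 6 of 273 (2.20%) for AP-1, TEAD and YAP pathway genes. The 22 listed genes with a member had 21 different strongest members, of which 3 (near *Wnt7b*, *Bmp2* and *Fos*) had every peak at 5 or more and none lay at a promoter.

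Among the listed ligands and inhibitors, *Tgfb2* had a member in its own intron 18.7 kb from its start, with a fold enrichment of 1.75 after 1 h, 1.97 after 8 h and 3.14 in untreated cells. *Smad7*, which encodes an inhibitory SMAD, had 2 members of the 21 regions near it, the stronger in an intron with 1.39, 2.44 and 1.86. *Fst*, which encodes the Activin-binding protein follistatin, had 1 with 1.89, 1.92 and 2.13. The highest value was in untreated cells at *Tgfb2* and *Fst* and after 8 h at *Smad7*.

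Of 24 mesendoderm genes, 5 had a member, where 10.4% of all genes had one. Other lists ran from 0 of 14 genes, as for SMADs and their DNA-binding partners, to 6 of 19 for AP-1, TEAD and YAP pathway genes. Genes were not matched for the number of regions near them. By regions, the share was 2.05% (0.945 to 4.41), an interval that includes the 1.59% of all regions. The member 10.7 kb upstream of *T*, which encodes the mesoderm factor Brachyury, had 2.18 after 1 h, 2.02 after 8 h and 3.20 in untreated cells. The one 11.7 kb from *Gsc*, the goosecoid homeobox gene, had 1.88, 2.11 and 1.63. *Lhx1*, a homeobox gene of the gastrula organizer, had 2, the stronger 45.2 kb upstream with 2.04, 2.12 and 2.39, and *Foxa2*, an endoderm factor, had 1 at 14.3 kb upstream with 1.68 to 1.82. *Gata4*, a factor of heart and endoderm, had 1 in its intron with 1.76, 1.91 and 2.04.

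For 4 of the listed members, the motif each held is shown in capitals, namely the SMAD palindrome GTCTAGAC at chr14:63215107-63215155 in *Gata4*, CCAGACA at chr5:128593535-128593583 upstream of the WNT receptor gene *Fzd10*, TGTGNATT at chr12:85483243-85483291 downstream of *Fos*, and TGTCTGG at chr11:69723257-69723305, 35.4 kb from *Polr2a*, a housekeeping gene.
Gata4: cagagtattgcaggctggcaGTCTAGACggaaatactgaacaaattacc
Fzd10: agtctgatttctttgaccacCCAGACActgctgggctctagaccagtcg
Fos: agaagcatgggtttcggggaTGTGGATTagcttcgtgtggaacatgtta
Polr2a: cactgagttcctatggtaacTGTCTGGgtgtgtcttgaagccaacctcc

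The *Fzd10* member, 7.49 kb upstream of the start, had a fold enrichment of 1.5 after 1 h, 1.69 after 8 h and 1.95 in untreated cells. The *Fos* member, 9.51 kb downstream of the start of this immediate early gene, had 1.77, 1.87 and 2.04, and the *Polr2a* one had 2.40, 2.29 and 1.89. The untreated value was the highest at *Fzd10* and *Fos* and the lowest at *Polr2a*. At *Fos* the −log10 q was 9.38 to 14.7 in spite of these low enrichments, and an SB-431542 peak lay 2005 bp away. Other WNT genes were *Wnt7b*, with 2.39, 2.40 and 2.25, and *Wnt3a*, with 1.79, 2.02 and 1.99, both ligands. A single member with 1.44 to 1.59 lay within 50 kb of both *Ccnd1*, which encodes cyclin D1, and *Fgf4*. *Id3*, a target of BMP signalling, had 1 with 1.58, 2.03 and 2.00. In the AP-1, TEAD and YAP list, *Jund*, *Tead2*, *Tead4*, *Ccn1* and *Ccn2* had 1 each, with 1.30 to 2.32 over all states. That of *Ccn1* lay in an exon, 960 bp from an SB-431542 peak.

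Most genes near members had only 1. Of 26180 genes, 2717 had a member within 50 kb of a start site, of which 2369 had 1, 314 had 2, 30 had 3 and 4 had 4. Those with 4 were *Spam1*, 4930459L07Rik, *Zzz3* and *Lrmp*, from among 16, 26, 18 and 33 regions near each. *Spam1*, *Hyal4* and *Hyal6* are hyaluronidase genes next to each other on chromosome 6 and so share members. The 6 named with 3 members were *Echdc1*, *Hyal4*, *Hyal6*, *Filip1*, *Pde1a* and *Vmn1r36*, and the strongest member near any of these 10 had a weakest −log10 q of 6.13, near *Echdc1*.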

How the data were processed

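ATAC-seq was performed on P19 cells in 4 states. The labels list 48 libraries, 12 per state and 6 per biological replicate, with 100000 cells per reaction. The authors trimmed with cutadapt 1.9.1 and used BWA 0.6.2 for alignment to the mm10 genome. Mitochondrial, discordant and ambiguously mapped pairs were discarded, libraries of a state were merged with Picard, and MACS2 2.1.1.20160309 called peaks in broad mode with no control library. bedtools 2.26.0 is also named in the submitters' processing notes. The deposited fold enrichment is a ratio of the mean pileup of a peak to local background, and the −log10 p and −log10 q values deposited by the authors are the peak caller's own for that pileup. They compare a peak with its surroundings and not states with each other. The lists give no read counts, and the authors give a range of reads per merged sample but no count for each state. Depth was compared between states only through the local background, estimated here as the Poisson mean that links the ratio and the −log10 p of a peak. A region depends on merging, so a weak peak in 1 list can add or remove a member.

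Peaks were merged with Python 3.11.15, numpy 2.4.6, pandas 2.3.3 and scipy 1.17.1, figures were drawn with matplotlib 3.10.9, and a region took its highest peak in each list. Classes, gene lists and counts of genes used 45756 RefSeq transcripts of 26180 genes. Nearest genes and the distances to them used the protein-coding transcripts alone. The 22 motifs were matched exactly in the central 300 bp on both strands of GRCm38. Some share letters, as CTCF with the GC-rich SMAD motif, and 1 of the motifs is not reported here. Related regions were found with blastn 2.17.0. Scripts were tested on simulated data. Intervals are 95% Wilson intervals, apart from the rough bound given for the element.

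The members and gene lists were chosen with earlier results of these data known. Named genes are those nearest the 20 members with the highest weakest −log10 q, listed genes with a member within 50 kb, the 10 genes with most members, and those nearest the 5 largest and 5 smallest ratios of 8 h to 1 h with every −log10 q at least 5. The element and the regions named for it were chosen after their values were seen. Alternatives were a minimum −log10 q, lists of equal length, other overlaps and windows, and other scores. Single libraries were not analysed here.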

Additional observations from a re-analysis of the deposited data

How the results depend on the processing

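No paired analysis was possible because each state has 1 merged list without replicates. Of 42 alternative values, 23 kept their direction and stayed within the margin set for a change, 18 moved beyond it and 1 turned round. The number of members was 1260 with a −log10 q of at least 5 required in all lists, 274 with 5 required of the signalling peaks alone and 7033 with every list cut to the length of the shortest, against 4487 with a 50% overlap and 4565 with merging within 200 bp. At equal length the sets lacking 1 h, 8 h or untreated peaks alone held 7561, 7086 and 8032 regions, close to the 7033 members, while at a minimum of 5 they held 6105, 5726 and 4726. The promoter share was 1.29% by any overlap. Over whole regions the shares with a motif were 17.4% for FOXH1, 9.74% for FOX, 15.0% for TCF/LEF and 22.2% for SMAD, and among members with every peak at 5 or more 13.9% for FOXH1, 6.20% for FOX and 15.3% for SMAD. For SMAD, windows centred on the bases common to the 3 peaks gave 11.3% and windows under 50% repeat 8.56%, and without the element both motifs were in 0.706% of members, all chosen after seeing the data, as were the alternatives for the element. The share of members higher after 8 h than after 1 h was 76.2% on unscaled fold enrichment, 63.4% on −log10 q and 74.8% in members with every peak at 5 or more. The share higher after 8 h than in untreated cells turned round on −log10 q, where it was 45.7%, and the cause was not tested. The share near listed genes was 0.595% at a minimum of 5, where members made up 0.704% of all regions. The share of regions with the element that were members was 26.4% under both other merging rules, 28.9% at equal length, 21.7% at a minimum of 5 and 22.7% without the commonest spacer. The unknown read depth of single libraries limits every value.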
